A study of Mus musculus with 8 samples.

Results

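The comparison asked which genes differed in the same direction between Runx1 knockout and wild-type mouse embryos at embryonic day 8.5 (E8.5) and again at embryonic day 12 (E12). A probe set, the unit in which the array reports a transcript, was taken where both knockout arrays lay on the same side of both wild-type arrays at E8.5 and on that same side at E12. Of 45037 probe sets, 1515 were lower in the knockout at both stages (3.36% of all) and 1010 were higher at both stages (2.24% of all). Probe sets with a unique gene symbol named 1905 of the 18193 genes measured, of which 1162 were lower, 750 were higher and 7 had probe sets in both directions. The values given below are log2 of the deposited intensities, and a difference is the knockout mean minus the wild-type mean, so that it chose the genes and describes them without testing them. The average difference is the mean of the E8.5 and the E12 difference.

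Total RNA of mouse embryo propers was measured on 8 Affymetrix mouse genome arrays with 1 colour. The 4 groups were wild type at E8.5, Runx1 knockout at E8.5, wild type at E12 and Runx1 knockout at E12, with 2 arrays in each, and the mice had a BALB/c background. The labels name neither the allele nor a promoter or Cre, and no source used here says if an array held RNA of 1 embryo or of several. In whole embryos, fewer cells of a type and less RNA per cell cannot be told apart.

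RUNX1 is the DNA-binding subunit of core binding factor, which it forms with CBFβ, and it activates or represses genes that carry its recognition sequence. It is required where endothelial cells of the embryo give rise to definitive blood, and knockout embryos lack definitive blood cells and die around midgestation, while primitive red cells of the yolk sac still form. Later in life the factor acts in megakaryocytes, the cells that shed platelets, and in myeloid cells, and its mutation is a cause of familial platelet disorder and leukaemia.

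Runx1 itself gave no check of the labels. The brightest of its 6 probe sets read 6.16 and 5.95 in the E8.5 wild-type arrays, 6.41 and 6.86 in the E8.5 arrays labelled knockout, 7.06 and 6.39 in wild-type arrays of E12, and 7.10 and 6.86 in the E12 arrays labelled knockout, where values of a pair are always given in the order replicate 1 and replicate 2. None of the 6 probe sets was lower in the knockout at both stages. At E8.5 all 6 differences were above 0, from 0.07 to 1.03, and at E12 they ran from -0.23 to 0.26. No source used here tells which part of Runx1 the knockout removes or if these probes fall in it. The 2 wild-type arrays resembled each other least at both stages, with a correlation over all probe sets of 0.927 at E8.5 and 0.965 at E12, against 0.983 and 0.992 between the knockout arrays. Markers of trophoblast and decidua, which lie outside the embryo proper, summed to 66720 intensity units in replicate 1 of the E8.5 wild type, where the other E8.5 arrays held between 12660 and 14860. The E12 arrays held between 917 and 1137. Markers of yolk sac endoderm and fetal liver summed to between 55940 (wild-type replicate 1) and 110100 at E8.5, and to between 6289 and 8812 at E12. The scaling between stages is not known. Red cell markers summed to 43110 in replicate 2 of the E8.5 wild type, where the other E8.5 arrays held between 10040 and 16500. Xist reached 11.5 in replicate 1 of the E8.5 wild type and 10.3 in replicate 2 of the E12 knockout, and between 5.12 and 6.25 elsewhere. What these differences between single arrays contribute to any result was not tested, and the values are repeated beside the results they move with.

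Promoter sequences of 4 genes lower at both stages are shown because the factor binds DNA at a short core. They are RefSeq windows of build GRCm38.p6, from 250 bases before to 50 bases after the start of a transcript. The letters TGTGGT and TGCGGT, searched on both strands and therefore also as ACCACA and ACCGCA, are in capitals, and overlapping matches run together. AI467606 (chr7:127091186-127091485, plus strand) and Ifi35 (chr11:101448162-101448461, plus strand) were lower in the knockout by more than the range within either group of the stage, the Steap3 window (chr1:120271031-120271330, minus strand) is that of its 4 windows with a match, and Pf4 (chr5:90772185-90772484, plus strand) was the gene called in the test over all probe sets.
AI467606: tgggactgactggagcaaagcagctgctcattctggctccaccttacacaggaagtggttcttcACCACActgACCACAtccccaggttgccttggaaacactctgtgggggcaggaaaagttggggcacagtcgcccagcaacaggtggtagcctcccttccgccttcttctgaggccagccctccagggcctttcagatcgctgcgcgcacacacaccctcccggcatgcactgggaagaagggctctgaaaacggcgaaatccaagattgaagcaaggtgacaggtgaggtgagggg
Steap3: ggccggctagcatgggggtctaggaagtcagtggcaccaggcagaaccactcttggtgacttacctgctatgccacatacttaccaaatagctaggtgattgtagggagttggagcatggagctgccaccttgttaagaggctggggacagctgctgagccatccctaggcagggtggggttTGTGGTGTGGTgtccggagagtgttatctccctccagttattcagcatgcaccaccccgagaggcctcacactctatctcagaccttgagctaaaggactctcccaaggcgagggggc
Ifi35: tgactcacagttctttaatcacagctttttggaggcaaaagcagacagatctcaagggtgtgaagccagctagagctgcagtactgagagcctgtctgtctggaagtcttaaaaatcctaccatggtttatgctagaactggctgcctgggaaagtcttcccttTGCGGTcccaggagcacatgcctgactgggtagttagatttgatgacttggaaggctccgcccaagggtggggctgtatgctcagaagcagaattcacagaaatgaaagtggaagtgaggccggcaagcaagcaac
Pf4: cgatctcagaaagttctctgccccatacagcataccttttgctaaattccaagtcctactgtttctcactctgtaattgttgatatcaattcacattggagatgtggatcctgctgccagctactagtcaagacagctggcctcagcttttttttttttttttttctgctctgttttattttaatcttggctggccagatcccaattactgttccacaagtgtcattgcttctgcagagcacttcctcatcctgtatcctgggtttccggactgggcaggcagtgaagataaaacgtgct
AI467606 and Steap3 each held 2 matches, Ifi35 held 1, and the letters were not in the Pf4 window. A window with a match was found for 225 of the 947 lower genes with a promoter sequence (23.8%), for 148 of 598 higher genes (24.7%) and for 3516 of 14452 genes measured (24.3%), so that lower and higher genes both lay near the share of all genes. A match describes letters in a window and is not evidence of binding.

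Separation at a given stage was common, because 2 arrays against 2 separate easily. At E8.5, 7241 probe sets were lower (16.1% of all) and 5923 higher (13.2%), and at E12, 7134 were lower (15.8%) and 5671 higher (12.6%). Of those lower at E8.5, 1515 were lower again at E12 (20.9%) and 656 were separated in the opposite direction (9.06%). Of those higher at E8.5, 1010 were higher again (17.1%) and 589 were separated the other way (9.94%). Over all probe sets the opposite directions made up 1.46% and 1.31%. Most shared differences were small. The median average difference was -0.32 over the lower probe sets and 0.37 over the higher ones, and both stage differences reached 0.5 in 99 of the lower and 156 of the higher probe sets, and a whole log2 unit in 7 and 1. The E8.5 difference was the larger of the pair in 68.9% of the lower and 61.9% of the higher probe sets, against 59.1% of all probe sets. At the edge of the rule, Dgkd was lower by a gap between the groups of 0.0004 at its narrower stage and Smyd5 missed by 0.0003. Ttc21b was inside by 0.0001 on the higher side and Commd10 missed by 0.0002.

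**Figure D1:**
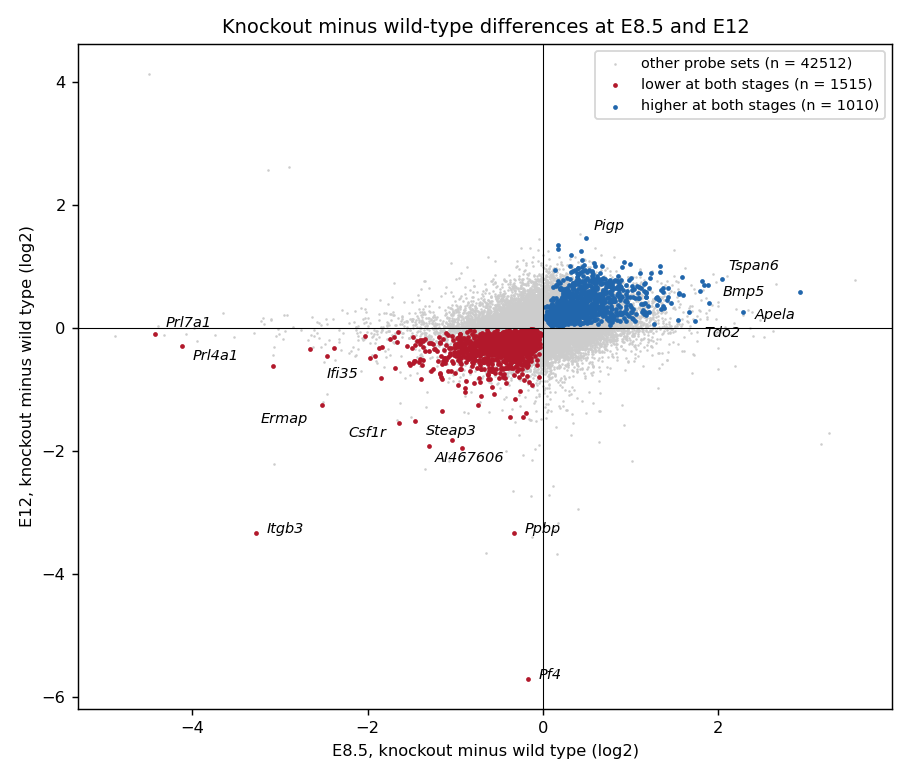
Knockout minus wild-type difference (log2) of each probe set at E8.5 (horizontal axis) and E12 (vertical axis), with the 1515 probe sets lower and the 1010 higher at both stages in colour and all others in grey. Itgb3 alone lies below -3 at both stages, Pf4 and Ppbp lie far down at E12 near the E8.5 zero line, and Prl7a1 and Prl4a1 lie far left at E8.5 near the E12 zero line.

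In the limma fit over all probe sets, 1 probe set passed a Benjamini-Hochberg adjusted p below 0.05 for the average difference, and it was Pf4, which fell (0.00222% of all probe sets). None rose (0.0% of all), and 1963 probe sets had an unadjusted p below 0.05 (4.36%). At the threshold named in the methods of the study, an absolute moderated t above 3, 493 probe sets were lower (1.09% of all) and 311 higher (0.691%). Among the separated probe sets 330 of the lower and 200 of the higher passed that threshold, against 1.79% of all probe sets, but the same values chose them and nothing is read from this. Apart from Pf4 (0.0137), Ppbp (0.213) and Tdo2 (0.774), every gene named by the rule had a limma adjusted p of 1 for the average difference in the probe set that stands for it, and among further probe sets of named genes 1 of Ifi35 had 0.745 and 1 of Tfr2 had 0.774. The words lower and higher below describe the arrays and not a passed test.

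Among the genes lower at both stages were products of megakaryocytes and platelets. By the brightest probe set of each gene, 6 of 28 measured platelet and megakaryocyte genes were lower at both stages and 0 higher, beside 3.85% and 2.46% of all 18193 genes, and 26 of the 28 had an average difference below 0. The 6 genes were F13a1, F2rl2, Itgb3, Nfe2, Pf4 and Ppbp. The median average difference of the list was -0.47 against -0.01 over all genes, and its medians by stage were -0.04 at E8.5 and -1.03 at E12.

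Itgb3, the β3 integrin that pairs with αIIb as the platelet fibrinogen receptor, had the largest average difference of the genes lower at both stages. It read 9.74 and 5.24 in the E8.5 wild type, 4.63 and 3.79 in the E8.5 knockout, 8.18 and 7.55 in the E12 wild type, and 4.40 and 4.66 in the E12 knockout. All 4 knockout arrays were below all 4 wild-type arrays, and E8.5 wild-type replicate 1 stood far above its partner. The average difference was -3.31 (SE 0.909, 2 arrays a group), a 9.88-fold lower intensity, and the E8.5 difference went from -3.28 to -1.03 without that array, which also carried the trophoblast signal.

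Pf4, platelet factor 4, a chemokine stored in platelet granules, read 10.31 and 10.79 in the E12 wild type and 4.86 and 4.82 in the E12 knockout. At E8.5 it read 5.27 and 5.08 in the wild type and 5.004 and 5.0 in the knockout. The E12 arrays were wide apart, whereas the E8.5 arrays of both genotypes were at the level of the E12 knockout and separated by less than 0.2. The average difference was -2.94 (SE 0.140, limma adjusted p = 0.0137), and it was the mean of a difference of -0.17 at E8.5 and of -5.71 at E12. The call did not hold in every setting, since the limma adjusted p was 0.0992 with the replicate block, 0.239 with a block within each stage, 0.999 in the additive model and 0.418 without the arrays with high Xist. It was 0.0562 without E12 wild-type replicate 2 and 0.298 to 0.376 without any of the knockout arrays. The stage differences differed from each other by -5.53 (limma adjusted p = 0.0202), and with the replicate block or a block within each stage no probe set was called for that difference (lowest limma adjusted p 0.138 and 0.321).

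Ppbp, the precursor of platelet basic protein, had the same shape. It read 7.16 and 7.60 in the E12 wild type and 3.89 and 4.19 in the E12 knockout, and 3.98, 3.72, 3.38 and 3.65 in the E8.5 wild type and knockout. The average difference was -1.84 (SE 0.160). F13a1, the A chain of coagulation factor XIII, was at 5.49 and 5.01 in the E12 wild type and at 3.67 to 3.91 in every E12 knockout and 3.55 to 3.89 in every E8.5 array. The E8.5 arrays had medians of 4.96 to 5.01 over all probe sets, so that the E8.5 readings of Ppbp and F13a1 were below the median and those of Pf4 close to it.

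Nfe2, a transcription factor needed for platelet release and also present in red cell precursors, read 4.97 and 7.09 in the E8.5 wild type and 4.82 and 4.93 in the knockout, and 6.79 and 6.56 in the E12 wild type and 5.38 and 5.26 in the knockout. The E12 groups were well apart, but at E8.5 wild-type replicate 2 carried the difference, which went from -1.15 to -2.21 without replicate 1 and to -0.09 without replicate 2. Replicate 2 was also the array with the high red cell markers. Plek, pleckstrin of platelets and white cells, was lower at both stages through 1 of its 3 probe sets, with 3.88 and 4.29 against 3.23 and 3.23 at E12. At E8.5 it read 3.34 and 3.22 against 3.12 and 3.01, and every reading was below the median of its array.

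**Figure D2:**
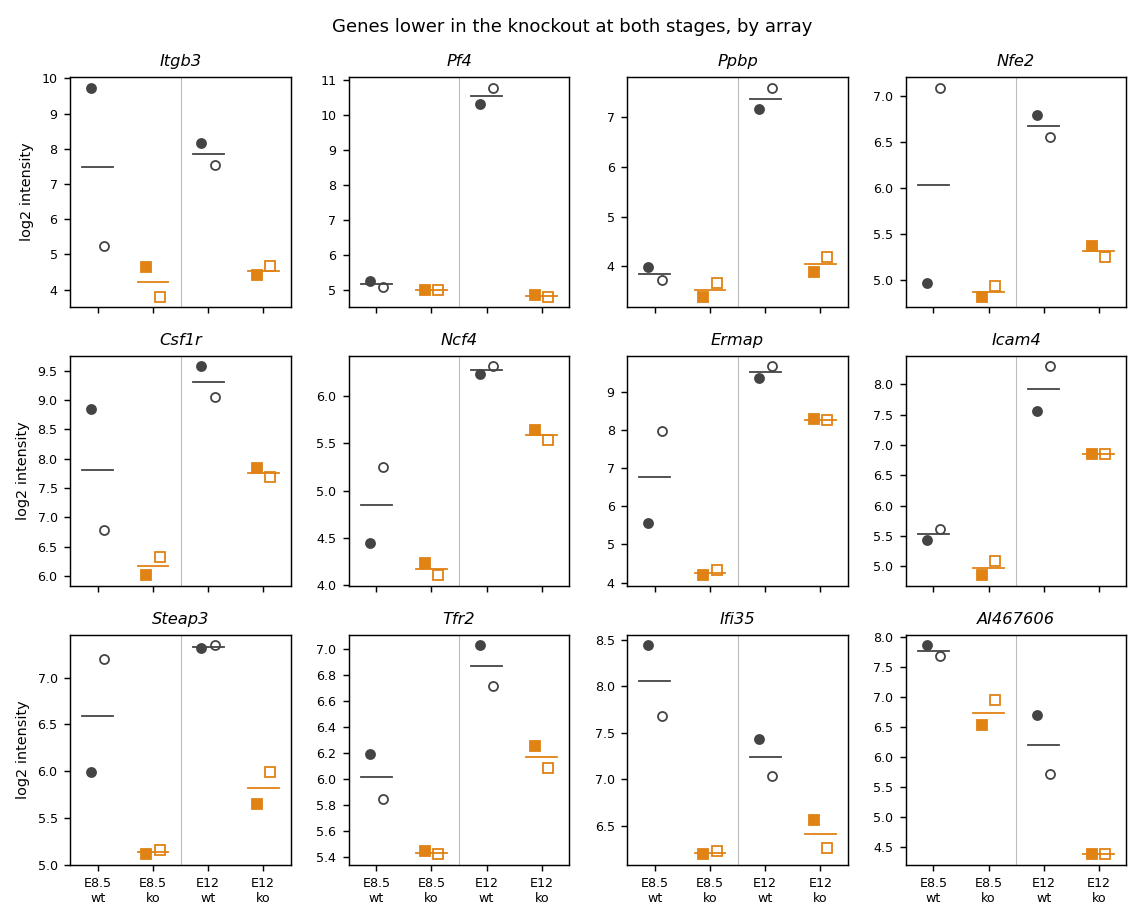
Log2 intensity of 12 genes lower at both stages, by array: circles are wild type, squares knockout, filled symbols replicate 1, open symbols replicate 2 and bars the mean of the pair. The E12 genotypes are far apart for Pf4, Ppbp and Itgb3, and the E8.5 wild-type pair is spread for Itgb3, Nfe2, Csf1r and Ermap.

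Genes of macrophages and granulocytes included 8 of 47 measured genes lower at both stages and 0 higher (Adgre1, Aif1, Cd53, Csf1r, Fcer1g, Ltf, Ncf4 and S100a9). Over all 18193 genes, 3.85% were lower and 2.46% higher. The median average difference was -0.39, with -0.06 at E8.5 and -0.63 at E12. The summed signal of the list at E8.5 was 2395 and 1654 in the wild type and 1575 and 1755 in the knockout. Csf1r, the receptor for the growth factor of macrophages and a published target of RUNX1, read 8.84 and 6.79 in the E8.5 wild type, 6.01 and 6.33 in the knockout, 9.57 and 9.05 in the E12 wild type and 7.85 and 7.68 in the knockout. The groups did not overlap at either stage, and all 3 probe sets of the gene had the same sign at both. The average difference was -1.60 (SE 0.431), or 3.03-fold, and it ranged from -2.11 to -1.08 as each array was left out. The E8.5 difference went from -1.65 to -0.62 without wild-type replicate 1, the array with the trophoblast signal.

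Ncf4, a subunit of the phagocyte NADPH oxidase, had differences of -0.68 at E8.5 and -0.68 at E12. Its E8.5 wild-type arrays were at 4.44 and 5.25, and the E8.5 difference went to -0.27 without replicate 2, so that the equal size rested on that array. Fcer1g, the shared γ chain of Fc receptors, read 4.81 and 4.57 against 4.43 and 4.43 at E8.5, and 5.37 and 5.28 against 4.67 and 4.80 at E12. Fcgr1, a receptor for IgG, differed by -0.24 and -0.61. The Fcgr1 probe set was below the median of every array, at 3.85 to 4.66.

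Of 27 measured red cell genes 3 were lower at both stages (Ermap, Hbb-b2 and Icam4) and 0 higher, although 25 of 27 had an average difference below 0 and the median was -0.58. The shares of all 18193 genes were 3.85% lower and 2.46% higher, so that 3 genes are a small count beside them. The summed red cell signal of E8.5 wild-type replicate 1 lay below that of both E8.5 knockout arrays, and at E12 the wild-type arrays were at 19350 and 38270 against 24030 and 25880 in the knockout. Their part in the result was not tested. Without E8.5 wild-type replicate 1, 13 of 27 were lower at both stages and the median was -0.82. With replicate 2 left out instead, on which red cell markers summed highest, 4 were lower and the median was -0.10.

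Ermap, a membrane protein of red cell precursors, read 5.55 and 7.99 in the E8.5 wild type and 4.18 and 4.32 in the knockout. At E12 it was at 9.38 and 9.68 in the wild type and at 8.29 and 8.27 in the knockout. Both pairs were apart, with an average difference of -1.89 (SE 0.491). Icam4, a red cell adhesion molecule, differed by -0.56 at E8.5 and -1.07 at E12. The probe set of Hbb-b2, an adult β-globin gene whose probes can also bind its near-identical copies, differed by -0.16 and -0.88. Its E8.5 readings were 3.89 to 4.17, below the median of each array, with a gap of 0.03 between the groups. Add2, β-adducin of the red cell skeleton, differed by -0.77 and -0.40 through 1 of 5 probe sets.

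Haem and iron genes, which serve haemoglobin synthesis, were lower at both stages in 5 of 26 measured genes and higher in 0, with a median average difference of -0.45 (-0.49 at E8.5 and -0.34 at E12). Beside this count, 3.85% of all 18193 genes were lower and 2.46% higher. Steap3, the ferrireductase that reduces iron released from transferrin in red cell precursors, read 5.99 and 7.20 in the E8.5 wild type and 5.11 and 5.15 in the knockout. At E12 it read 7.32 and 7.35 in the wild type and 5.65 and 5.99 in the knockout. All 3 of its probe sets were lower at both stages, and the average difference of the brightest was -1.49 (SE 0.264), or 2.80-fold.

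Tfr2, transferrin receptor 2, was separated at both stages by more than the range within either group of the stage, with 6.19 and 5.84 against 5.45 and 5.42 at E8.5, and 7.03 and 6.71 against 6.25 and 6.08 at E12. Alad, the enzyme of the second step of haem synthesis, differed by -1.27 and -0.71, and Hebp1, a haem-binding protein, by -0.75 and -0.65. Abcb6, a porphyrin transporter, was the remaining member. Car2, carbonic anhydrase of red cells and other tissues, differed by -1.39 and -0.84, and its E8.5 difference went to -0.40 without wild-type replicate 1.

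Among 28 measured genes of interferon response and antigen presentation, 4 were lower at both stages (Ifi35, Ifit1, Irf9 and Tapbp) and 1 was higher (Ifit2). Of all 18193 genes, 3.85% were lower and 2.46% higher. Ifi35, an interferon-induced protein, read 8.44 and 7.68 in the E8.5 wild type, 6.19 and 6.23 in the knockout, 7.44 and 7.04 in the E12 wild type and 6.56 and 6.26 in the knockout. All 3 of its probe sets were lower at both stages, each by more than the range within either group of the stage, with average differences of -1.34, -0.87 and -0.75. Tapbp, tapasin, which loads peptides on MHC class I, differed by -1.12 and -0.50, and H2-D1, an MHC class I heavy chain, was lower through 1 of 9 probe sets, 6 of which had the same sign at both stages. Ifit2 went the other way, with differences of 1.36 and 0.58, and its E8.5 wild-type arrays were at 4.54 and 6.42 against 7.10 and 6.59.

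Of 27 measured genes published as targets of RUNX1, 4 were lower at both stages (Csf1r, Csf2, Nfe2 and Pf4) and 0 higher, with a median average difference of -0.18. The shares of all genes were 3.85% lower and 2.46% higher. Nfe2 and Pf4 were already counted in the platelet list and Csf1r in the macrophage list, so that this count is not separate from those. Myb, a transcription factor of blood progenitors in the same list, was lower through 1 of its 3 probe sets by -0.74 at E8.5 and -1.26 at E12 and had the same sign in all 3. Its nearest E8.5 arrays, wild-type and knockout replicate 2, both read 4.51 after rounding, so that the separation at that stage was narrower than the rounding. Of 23 members and partners of the RUNX family none was separated at both stages by its brightest probe set, and Cbfa2t3, a corepressor, was lower through 1 of 4 probe sets by -0.28 and -0.43. Of 27 blood stem and progenitor genes, 0 were lower and 1 higher (Bmi1, a Polycomb protein, by 0.73 and 0.72).

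Of 36 endothelial genes, 2 were lower (Cdh5 and Gja4) and 1 higher (Emcn), near the shares of all genes. Cdh5, VE-cadherin, the junction protein of endothelium, read 10.09 and 7.08 against 5.70 and 6.54 at E8.5 and 5.84 and 5.18 against 4.99 and 5.12 at E12. Its E8.5 difference of -2.46 went to -0.96 without wild-type replicate 1, and the E12 wild-type value of 5.18 lay close above the knockout. Emcn, endomucin of veins and capillaries, was the reverse, with 3.99 and 4.04 against 4.30 and 4.29 at E8.5, and 5.41 and 5.37 against 5.90 and 6.14 at E12. The gap for Emcn was wider at both stages than the range within either group of the stage.

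Of 22 trophoblast and decidua genes, 3 were lower (Ctsq, Prl4a1 and Prl7a1) and 0 higher, beside 3.85% and 2.46% of all 18193 genes. Prl7a1 and Prl4a1, prolactin-family hormones of the placenta, read 12.96 and 12.47 in E8.5 wild-type replicate 1, and 4.37 and 6.80 in E8.5 wild-type replicate 2. At E12 every value of Prl7a1 was between 4.43 and 4.63. Without E8.5 wild-type replicate 1 the E8.5 difference of Prl7a1 was -0.13, so that its average difference of -2.27 was the reading of that array.

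Some genes were separated widely for the spread of their replicates. At both stages a gap wider than the range within either group of that stage was found in 113 of the 1515 lower and 52 of the 1010 higher probe sets, together 0.366% of all probe sets. AI467606, a protein-coding gene on chromosome 7, was the largest of them, with 7.87 and 7.68 against 6.53 and 6.95 at E8.5 and 6.70 and 5.72 against 4.38 and 4.38 at E12 (average difference -1.43, SE 0.233). It was lower through 1 of its 2 probe sets, and the other did not have that sign at both stages. Its E12 knockout readings lay below the median of those arrays (5.20). Pfn1, profilin, which binds actin monomers, followed Ifi35 with -0.96, and Cxxc1, a subunit of an H3K4 methyltransferase complex, with -0.88. Kif1c, a kinesin motor, and Cdt1, which licenses replication origins, had -0.87 and -0.64. Cd47, the ligand that restrains phagocytosis by macrophages, had -0.72. Jund, a subunit of AP-1 and by brightest probe sets the only lower gene among 30 immediate early and heat shock genes, had -0.50. Ddit3, a transcription factor of the stress response in that list, was lower through 1 of its 2 probe sets by -0.55 and -0.14.

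Some lower genes had about the same difference at both stages. Necap2, a protein of endocytic vesicles, differed by -0.88 at E8.5 and -0.87 at E12, with 8.62 and 8.24 against 7.25 and 7.85, and 7.41 and 6.84 against 6.15 and 6.35. Slc16a6, a monocarboxylate transporter, differed by -0.89 and -0.98, but its E8.5 difference went to -0.42 without wild-type replicate 1. Syngr2, synaptogyrin 2 of vesicle membranes, differed by -0.96 and -0.93, but its E8.5 wild-type arrays were at 10.24 and 8.42 against 8.33 and 8.40 in the knockout, so that replicate 1 carried that difference. Ndrg1, a gene induced by low oxygen, differed by -2.38 and -0.33, and all 5 of its probe sets had the same sign at both stages. Hk1 and Hk2, hexokinases of glycolysis, differed by -0.27 and -1.03 and by -0.34 and -0.28. The whole list of glycolysis and hypoxia genes was highest at E8.5 on wild-type replicate 1, with a mean deviation from the stage mean of 0.709, and at E12 on wild-type replicate 2, with 0.157, and their part in these results was not tested.

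Other probe sets of the genes were compared for their sign. Of 1663 probe sets of lower genes that were not themselves lower at both stages, 47.3% had the same negative sign at both stages, against 28.7% of all probe sets, and of 1203 such probe sets of higher genes, 50.3% had the positive sign, against 28%. These probe sets share the embryo and the array with the ones that chose the gene, and some overlap in sequence. As a description of what the rule chose, at least 3 probe sets were lower at both stages for 9 genes and higher for 6. They included all 5 of Rbm14, an RNA-binding coactivator, all 3 of Grn, progranulin, 4 of 9 of Ptdss2, which makes phosphatidylserine, 3 of 4 of Lamb1, the laminin β1 chain, and 3 of 9 of Lasp1, an actin-binding protein. On the higher side they included 3 of 6 of Bmpr1a, a BMP receptor, 3 of 4 of Brwd3, 3 of 5 of Lztfl1, a protein of cilia, all 3 of Ppp2r3c and 3 of 4 of Hapln1.

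The genes named on the higher side included secreted signals, a receptor and membrane proteins. Bmp5, a bone morphogenetic protein, read 6.61 and 7.49 in the E8.5 wild type, 9.09 and 8.78 in the knockout, 8.13 and 8.84 in the E12 wild type and 9.06 and 9.29 in the knockout. The groups were apart at both stages, with the wider gap at E8.5, and the average difference was 1.28 (SE 0.252), or 2.44-fold. Fzd3, a Wnt receptor, differed by 1.81 and 0.76, but its E8.5 wild-type arrays were at 4.73 and 7.56, and the difference went to 0.40 without replicate 1, which carried the trophoblast signal. Igf1, insulin-like growth factor 1, differed by 1.22 and 0.80, and by 0.16 at E8.5 without that array. Apela, a peptide ligand of the apelin receptor in early embryos, differed by 2.29 at E8.5 and by 0.26 at E12, where every array was between 3.79 and 4.19. Its E8.5 wild-type arrays were at 4.04 and 6.80, and the E8.5 difference went to 0.91 without replicate 1.

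Tspan6, a tetraspanin, had the largest average difference of the higher probe sets with 1 gene symbol. It read 7.08 and 9.01 against 10.22 and 9.95 at E8.5, and 8.47 and 9.58 against 9.66 and 9.98 at E12. The knockout was above the wild type throughout, but by 0.08 only between the nearest E12 arrays. The average difference was 1.42 (SE 0.453). Hapln1, a link protein of cartilage and heart matrix, read 6.68 and 8.31 against 8.83 and 8.64 at E8.5 and 5.20 and 5.92 against 6.36 and 6.54 at E12, and all 4 of its probe sets had the same sign. Flrt3, an adhesion protein, differed by 0.85 and 0.84, and Hook1, a linker of endosomes to microtubules, by 0.90 and 0.99.

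Among the higher probe sets with a gap wider than the range within either group of the stage, the largest average differences were those of Pigp (0.98), Mcoln3, an ion channel of endosomes and lysosomes (0.96), Hapln1 (0.96, through a probe set other than its brightest), Cdh10, a cadherin (0.89), Sorbs2, an adaptor of the cytoskeleton (0.64), and Cryzl1 (0.62). Mcoln3 differed by 1.42 at E8.5 and 0.49 at E12, Cdh10 by 1.33 and 0.45, and Sorbs2 by 0.61 and 0.66. Further down, Dmd, dystrophin of muscle, differed by 0.69 and 0.48. Lrrk2, a kinase, differed by 0.59 and 0.51 at a low intensity.

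Nuclear genes among those named were Kdm7a, a histone demethylase (1.84 and 0.69), Zfp711 (1.33 and 1.01), Zfp760 (0.93 and 1.07) and Zfp292 (1.01 and 0.81), which encode zinc finger proteins. Zfp711 read 7.41 and 8.96 against 9.43 and 9.61 at E8.5, and 6.24 and 7.54 against 7.86 and 7.94 at E12. In all 3 zinc finger genes replicate 1 of the wild type was the lowest array of both stages. That pattern was general at E12. Wild-type replicate 1 was above replicate 2 in 29.7% of the higher and 63.6% of the lower probe sets, against 54.1% of all, so that replicate 1 was the wild-type array farther from the knockout in most of both. At E8.5 the shares were 43.6%, 50.3% and 48.8%.

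**Figure D3:**
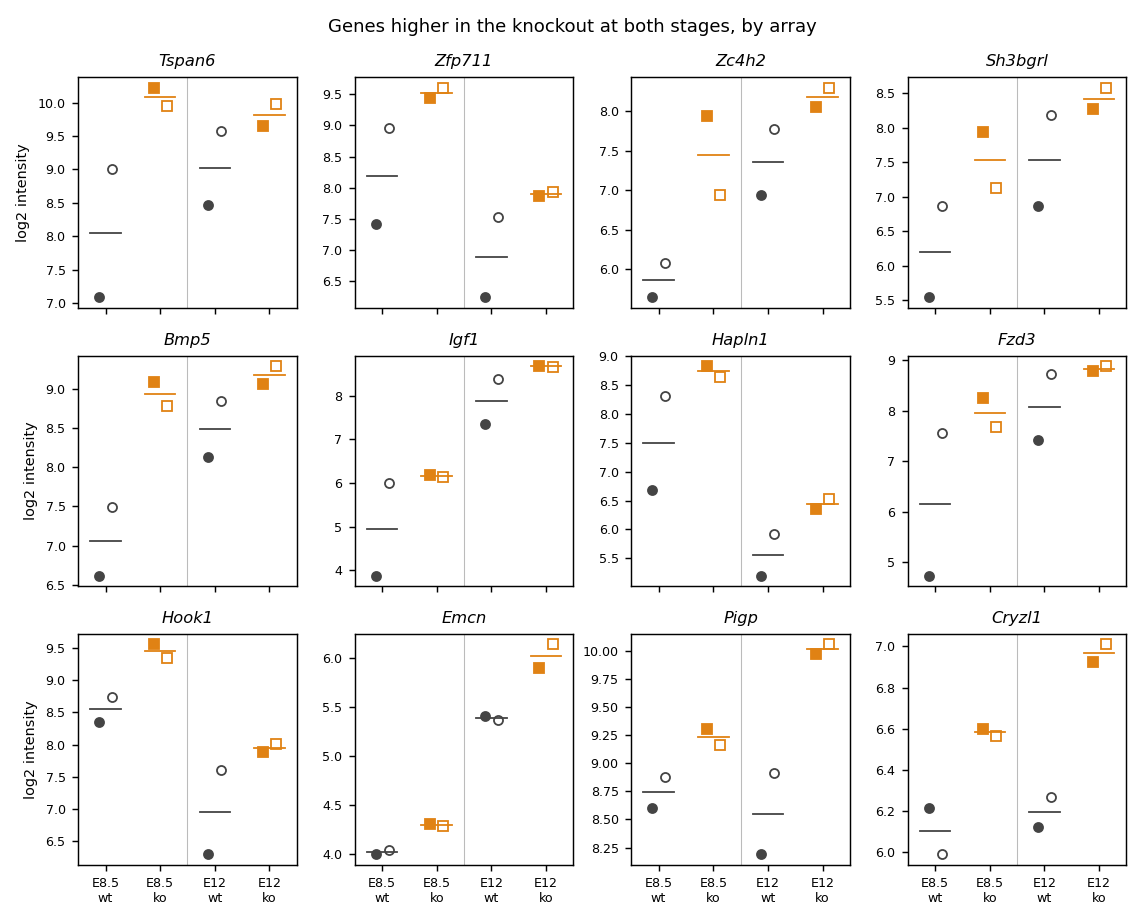
Log2 intensity of 12 genes higher at both stages, by array: circles are wild type, squares knockout, filled symbols replicate 1, open symbols replicate 2 and bars the mean of the pair. Panels with wild-type replicate 1 as the lowest point at both stages include Tspan6, Zfp711, Zc4h2, Sh3bgrl, Bmp5, Igf1, Hapln1, Fzd3 and Pigp. Emcn and Cryzl1 have tight pairs.

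Genes on the X chromosome made up 50 of 739 placed higher genes (6.77%) and 22 of 1155 lower genes (1.9%), against 618 of 18145 genes measured (3.41%). Tspan6, Zfp711, Zc4h2 and Sh3bgrl are on it. Zc4h2, a zinc finger protein of developing neurons, read 5.65 and 6.08 against 7.95 and 6.94 at E8.5, and 6.94 and 7.78 against 8.06 and 8.30 at E12. Sh3bgrl, a thioredoxin-like protein, differed by 1.33 and 0.90 and had the same sign in all 3 of its probe sets. High Xist marks an array with an inactive X, and it was high in 1 wild-type array at E8.5 and 1 knockout array at E12. With both arrays left out, the X held 5.44% of the higher and 2.53% of the lower genes placed.

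By brightest probe sets, lists of embryonic tissues held 0 to 3 separated genes each, beside 3.85% lower and 2.46% higher of all 18193 genes. Of 31 somite, muscle and cartilage genes, 3 were higher (Col11a1, Hapln1 and Sox9) and 0 lower, so that the higher genes lay above the share of all genes, on a small count. Of 31 yolk sac endoderm and fetal liver genes, 1 was higher, Tdo2, the first enzyme of tryptophan breakdown, which read 5.35 and 5.73 against 7.22 and 7.34 at E8.5 and was between 3.32 and 3.53 in every E12 array. Of 33 neural genes, 1 was higher (Dlx1) and 0 lower, although 28 had an average difference above 0 and the median was 0.23. The neural genes were lowest on wild-type replicate 1 at both stages, with a mean deviation from the stage mean of -0.435 at E8.5 and -0.286 at E12. Dab2, an endocytic adaptor of yolk sac endoderm, was higher through 1 of 4 probe sets, with 8.32 and 8.31 against 8.79 and 8.93 at E8.5 and 4.92 and 5.89 against 6.21 and 5.97 at E12, but none of its other probe sets had that sign at both stages. Elavl4, a neuronal RNA-binding protein, was higher through 1 of 3 probe sets by 0.23 and 0.77. The neural genes Pax6 and Dcx, a patterning factor and a microtubule protein, were lower through 1 of 5 probe sets by -0.40 and -0.15 and through 1 of 4 by -0.09 and -0.13, and none of their other probe sets had that sign at both stages. By the brightest probe set, none of 26 heart genes, 34 cell cycle genes and 4 metallothioneins was separated at both stages, but Ttn, titin of the heart list, was lower through 1 of 6 probe sets by -0.12 and -0.19. Among p53 and DNA damage genes 1 of 26 was higher (Chek1), among glycolysis and hypoxia genes 2 of 27 were lower (Hk1 and Hk2), among neural crest genes 1 of 18 was lower (Th), among tubulins 1 of 15 (Tubb6) and among sex-linked genes 1 of 8 (Zfy2, near the lowest intensities of the arrays).

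**Figure D4:**
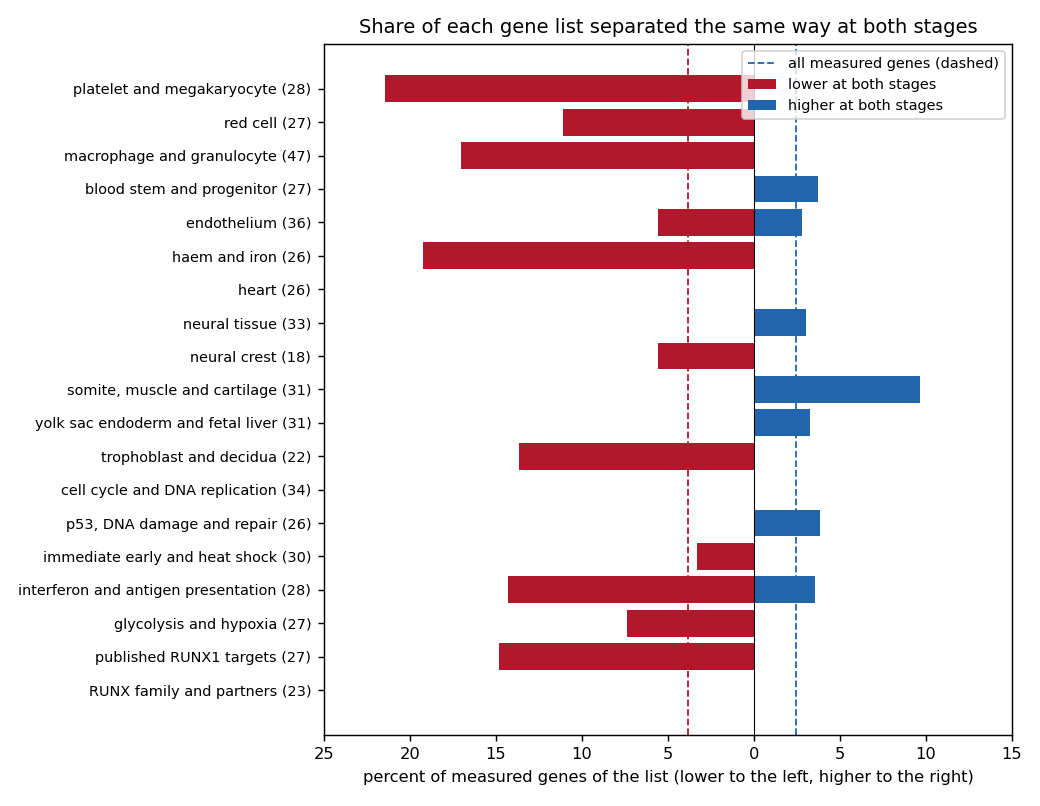
Percent of the measured genes of each list that were lower (left) or higher (right) in the knockout at both stages, with the number of measured genes in brackets and dashed lines at the 3.85% and 2.46% of all measured genes. Bars of the platelet, macrophage, red cell, haem, trophoblast, published target, glycolysis, immediate early and neural crest lists extend to the left only. Heart, cell cycle and RUNX family lists have no bar.

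The genes around Runx1 on the chromosome were described by gene order. Of the 20 measured genes on each side in gene order, by the brightest probe set, 1 was lower at both stages (Setd4) and 2 were higher (2410124H12Rik and Pigp). The shares of all 18193 genes were 3.85% lower and 2.46% higher. These small counts lie near those shares, and nothing about the neighbourhood is read from them. Pigp, which adds the first sugar of the membrane anchor GPI, read 8.60 and 8.88 against 9.31 and 9.16 at E8.5, and 8.19 and 8.91 against 9.97 and 10.05 at E12. The gap was wider than the range within either group of the same stage, narrowly at E8.5 (0.282 against 0.272), and the average difference was 0.98 (SE 0.182). Cryzl1, a quinone oxidoreductase-like gene on the other side, was higher through 1 of 4 probe sets, with 6.22 and 5.99 against 6.60 and 6.57 at E8.5 and 6.12 and 6.27 against 6.92 and 7.01 at E12. Setd4, a SET domain methyltransferase, differed by -0.56 and -0.32. The median over the 40 neighbours was 0.03.

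**Figure D5:**
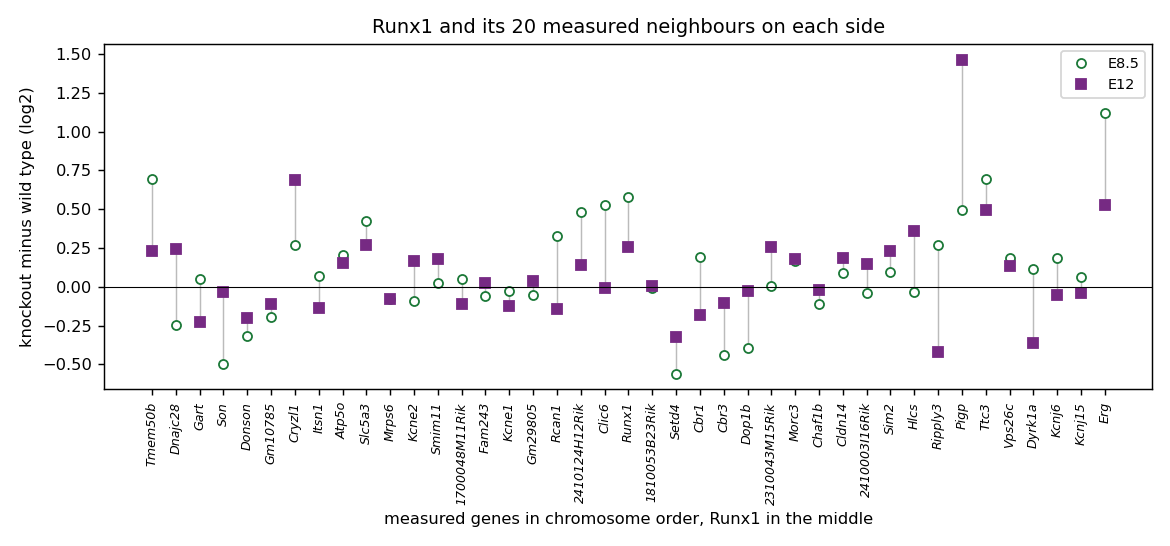
Knockout minus wild-type difference (log2) at E8.5 (open circles) and E12 (squares) for Runx1 and the 20 measured genes on each side in chromosome order, by the brightest probe set of each gene. Pigp stands highest at E12 with 1.46, and Setd4 is below 0 at both stages.

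The difference between stages over both genotypes was tested in the same fit. It uses the same 8 arrays and the same spread as the rule, so that it is not independent of how the probe sets were chosen. A high E8.5 wild-type array makes a probe set both lower in the knockout and lower at E12. Prl4a1, with 12.47 and 6.80 in the E8.5 wild type, differed by -3.70 between stages. The shares below are a description only. Of the lower probe sets, 38.7% were lower and 14.0% were higher at E12 than at E8.5 at a limma adjusted p below 0.05, against 22.5% and 20.6% of all probe sets. Of the higher probe sets, 23.6% were lower and 32.1% were higher at E12. The scaling between stages is not known, since the 99th percentile ranged from 12.2 to 12.3 in E8.5 arrays but from 10.5 to 11.1 in those of E12. The knockout effect itself differed between stages in 1 lower probe set, that of Pf4, and in 0 higher ones, against 2 of all probe sets (0.00444%). At an unadjusted p below 0.05 it differed in 34 lower (2.24%) and 20 higher probe sets (1.98%), against 842 of all (1.87%).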

How the data were processed

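The authors normalized and summarized the arrays by Robust Multi-array Analysis. The intensities they deposited are linear, and log2 was taken with no pseudocount. No source used here says if the 8 arrays were normalized together. RNA had been amplified with oligo-dT priming before labelling. Of 45101 probe sets, 64 controls were left out. Names came from the platform annotation, updated through RefSeq (GRCm38.p6): 34945 probe sets had 1 gene symbol, 932 several and 9160 none named here. The study describes the replicates as biological. A p-value covers only the spread between such arrays, whose number limits the precision.

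Limma 3.58.1 (R 4.3.3) fitted a mean for each group over the 8 arrays together, and p-values were adjusted by Benjamini-Hochberg over 45037 probe sets. The average contrast was tested on simulated data with 200 changed probe sets of 45037 in 10 runs: 29.3% of changes of 1 log2 unit and 77.4% of changes of 2 were recovered, and 4.65% of calls were false. The simulated noise was normal, independent between arrays and of 1 spread a probe set in all groups. In the data the mean residual variance was 0.348 in the E8.5 wild type and 0.026 in the E12 knockout. The simulated rates therefore need not hold for these arrays. The members and the 22 gene lists were chosen with earlier results of these data known. Lists used the brightest probe set of a gene and got no test. Genes named were the first 10 in each direction by the smaller stage difference among probe sets at 6 or more in the brighter genotype, the first 5 by average difference, called ones, up to 4 of each list, Runx1 and its separated neighbours. Genes named for several probe sets or for gaps wider than the ranges were chosen after their values were seen. Alternatives were quantile normalization, the brighter probe sets, leaving out arrays, array weights, a replicate block, log2(value + 16), another prior, an additive model and a gap of 0.2.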

Additional observations from a re-analysis of the deposited data

Results flagged for a closer look

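The knockout effect on Pf4 differed between the stages. The E8.5 effect was -0.17 and the E12 effect -5.71, so that they differed by -5.53 (limma adjusted p = 0.0202 over all probe sets). With the replicate block or a replicate block within each stage no probe set was called for that difference (lowest limma adjusted p 0.138 and 0.321). Both knockout arrays were below both wild-type arrays at each stage. The cause was not tested.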

How the results depend on the processing

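Counts depended on single arrays. Beside 1 probe set called for the average difference, 2 were called with log2(value + 16), 5 with a trend and robust prior (Pf4, Ppbp, Sla, Lyz1 and Ctss), and 0 with the additive model, without the 2 arrays with high Xist, with the replicate block and with a replicate block within each stage, the last chosen after seeing the data. With arrays left out in turn it was 0 to 1128, with 10 without E8.5 wild-type replicate 1, 1128 without E8.5 wild-type replicate 2, 1 without E12 wild-type replicate 1 and 0 for the others. The average difference of Pf4 was -3.34 to -2.60 in every setting, and its limma adjusted p ranged from 0.000935 to 0.999. The count at an absolute t above 3 was 804 (61.3% lower), 251 among the brighter probe sets, 505 with the trend and robust prior, 1730 with the block within each stage and 337 to 4020 as arrays were left out (29.4% lower without E12 wild-type replicate 2, 78.1% without the high-Xist arrays). For the difference between stages, 2 probe sets were called, 1 among the brighter probe sets, 8 with the trend and robust prior, 0 with either block or without the high-Xist arrays, and 0 to 718 as arrays were left out. Beside 2525 probe sets separated at both stages there were 1427 among the brighter ones, 218 with a gap of at least 0.2 and 2810 after quantile normalization (2052 of them shared). Comparing fewer arrays separates more by construction: 3991 to 6757 without single arrays, 8530 without the high-Xist arrays and 6815 by the sign within each replicate number. The stage difference called 19408 probe sets, and 13222 to 21649 as arrays were left out. Lower platelet genes numbered 6 to 14 as arrays were left out, red cell genes 3 to 13, macrophage genes 8 to 19, and haem and iron genes 5 to 11. The average difference of the genes named by the rule kept its sign in every setting run. For separated genes the rule itself fixed this sign when arrays were left out. The blocks, array weights, other prior and additive model do not change the estimate in this balanced design. Nothing is therefore read from the kept sign. Genes named for gaps or for several probe sets were not rerun. Replicate numbers deviated together within a stage (correlations 0.372 at E8.5 and 0.173 at E12) but not across stages (-0.121 to 0.076). The main fit did not take them as pairs, although the knockout difference is made within a stage. Under the replicate block the count at an absolute t above 3 was 1100, and under the block within each stage 1730. The log2 difference between 3' and 5' control probe sets of Gapdh was 2.16 to 2.38 in the replicate 1 arrays. It was 2.56 to 2.65 in the replicate 2 arrays, and its part was not tested.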

Other observations

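Symbols beginning with Zfp, a class of zinc finger genes that was chosen after the values were seen, made up 43 of 750 higher genes (5.73%) and 12 of 1162 lower genes (1.03%), against 339 of the 18193 genes measured (1.86%). The median GC content of the promoter windows was 60.3% for lower genes, 58.0% for higher genes and 58.7% for all genes measured. These are counts over genes of the same 8 arrays and no test was made of them.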
